A study of Mus musculus with 20 samples.

Results

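The genes described here encode the proteins that make microRNAs, carry out microRNA silencing, shorten poly(A) tails, remove caps and degrade messenger RNA. They come from a list of 52 mouse symbols, chosen by name with earlier results of these data known. Of these, 50 were among the 13283 symbols of the deposited table. Tut4 and Tut7 were not, but the table holds Zcchc11 and Zcchc6, which RefSeq gives as older symbols of these genes. Their values are given beside the members and enter none of the counts. Of the 50 members, 48 passed the filter on low values (a mean of 3.32 or more in the log2 units of the table) and were tested. Ago4, with means of 2.82 in the conditional libraries and 2.94 in the clones, and Dcp1b, with 3.32 (below the unrounded filter) and 3.25, were not tested.

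All 20 libraries were made from total RNA, with a kit that selects poly(A) RNA, of C57BL/6 mouse embryonic stem cells, labelled male, in FCS, LIF and 2i medium. In the conditional system, 4 libraries come from Trim71-KO cells, in which Trim71 was deleted, and 4 from Trim71-cond cells, labelled with the floxed genotype Trimfl/fl, and the 4 of each group carry the codes 1A, 2B, 3A and 3B. The clonal system has 3 clones with the R595H change of TRIM71 on both alleles (R595H/R595H; C14, C20 and C24), 3 heterozygous clones (R595H/+; C15, C21 and C23) and 3 WT clones (C16, C7 and C5). Clones C14, C15 and C16 each have a library from each of the date codes 20/1 and 5/2, and the other clones one from 5/2. These codes are from the titles: the day tags match them only for the 20/1 libraries of C14 and C16, and the first C15 library carries a February tag. The labels name no clone for the conditional libraries and do not say how or where the gene was cut, so these 4 libraries a group may share 1 deletion and p-values cover the spread between libraries only. The level of Trim71 itself was 7.47 ± 0.05 in Trim71-KO and 8.95 ± 0.04 in Trim71-cond (SD, n = 4 each), and 10.11 ± 0.10 in R595H/R595H, 9.58 ± 0.04 in R595H/+ and 9.50 ± 0.03 in WT (SD, n = 3 clones each).

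A microRNA is cut from its hairpin precursor first by Drosha with DGCR8 in the nucleus and then, after export by exportin-5, by Dicer with the double-stranded RNA-binding proteins TARBP2 and PRKRA. Loaded into an Argonaute protein it pairs with a target through its seed, and the Argonaute binds a GW182 protein (TNRC6A to TNRC6C), which brings in the PAN2-PAN3 and CCR4-NOT deadenylases. After deadenylation the DCP1-DCP2 enzyme removes the cap and XRN1 digests the body of the message from its 5′ end. Nonsense-mediated decay feeds faulty messages into the same steps through UPF1, its kinase SMG1 and proteins such as SMG5 and SMG6. TRIM71 is known as a let-7 target and as a protein that lowers its own targets together with these machineries.

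The deposited values carry a limit that bears on every test below. Around their 5 group means, 20 libraries can vary in 15 directions, but these vary in 10 of them: the other 5 hold no variation in any gene (singular values of 5.5e-05 or less, against 11.9 for the smallest direction that varies). All 5 lie within the groups. This is what remains when 5 variables are regressed out of a table while the group means are kept, a step that none of the sources used here names. The conditional libraries hold 1.03 of the 5 within their 6 directions, mainly through code 1A, and the clones hold 3.97 within their 9, mainly through C14, C15 and C16. The spread between replicates is thus understated, and so are standard errors and p-values from a fit of the conditional libraries or of the clones alone. Each result is therefore given from that fit and from 1 fit of all 20 libraries in which the 5 directions are covariates. This 20-library fit has 10 residual degrees of freedom and treats both libraries of a clone as separate. It uses the same estimate of a gene's spread for both systems. Its standard errors for Trim71-KO thus also take in the spread among the clonal libraries. Whether a call lost in it was lost through that shared spread or through the missing directions was not tested. Any error made by such a step in the values themselves cannot be recovered from the table. The read depth is unknown. Of 12 stem cell markers, 11 passed the filter in both systems, while 0 of the 4 fibroblast and 0 of the 4 endoderm markers in the table did. Of the neural markers 2 of 4 passed, as did 2 of 6 two-cell-like markers. The libraries also stood apart on Y-linked genes. Their mean was 5.65 to 5.80 in Trim71-KO and 5.88 to 6.20 in Trim71-cond, without overlap. Among the clones this mean was 3.72 to 4.36 in all R595H/R595H libraries, in R595H/+ C23 and in WT C16 and C7. It was 5.22 to 5.61 in R595H/+ C15 and C21 and 6.00 in WT C5. The part of the split between Trim71-KO and Trim71-cond in the members' differences was not tested.

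The first comparison asks how the machinery differs once Trim71 is deleted. In Trim71-KO the GW182 gene Tnrc6b, the decapping enzyme gene Dcp2 and the nuclear exonuclease gene Xrn2 were higher, by 0.26 to 0.30 on the log2 scale. The Dicer partner gene Tarbp2, the CCR4-NOT subunit gene Cnot9 and the decapping enhancer gene Edc3 were lower, by 0.25 to 0.34. These 6 genes passed both fits and all 15 alternative settings tried. In the 8-library fit limma called 11 of 48 members at a Benjamini-Hochberg adjusted p under 0.05, which is 22.9% beside 18.6% of all 9580 genes tested. Of these 6 were higher, beside 9.24% of all genes, and 5 lower, beside 9.37%. In the 20-library fit it called the 6 members, or 12.5%, beside 7.22% of 9588 genes, 3 higher (beside 3.91%) and 3 lower (beside 3.31%). At an unadjusted p under 0.05 there were 21 of 48 members in the 8-library fit, beside 32.7% of all genes. Neither share of the members was compared by a test with that of all genes. The members' median difference was 0.00 on the log2 scale, as was that of all genes, between extremes of -0.34 and 0.30, and groups did not overlap for 12 of 48 members (25%), beside 20.8% of all genes. The linear sum of the stem cell markers was higher in Trim71-KO, at 9470 to 10200 against 8400 to 9080 in Trim71-cond. Single markers went both ways. Of 11 tested, 5 were called higher in the 8-library fit, such as Klf4 (0.74 ± 0.07), and 2 lower, such as Sall4 (-0.46 ± 0.06). The 20-library fit called 3 higher and 1 lower, Klf4 and Sall4 among them. The part of these markers in the members' differences was not tested. In such bulk libraries a lower value can mean fewer cells with the transcript or less of it per cell, and these cannot be told apart.

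**Figure D1:**
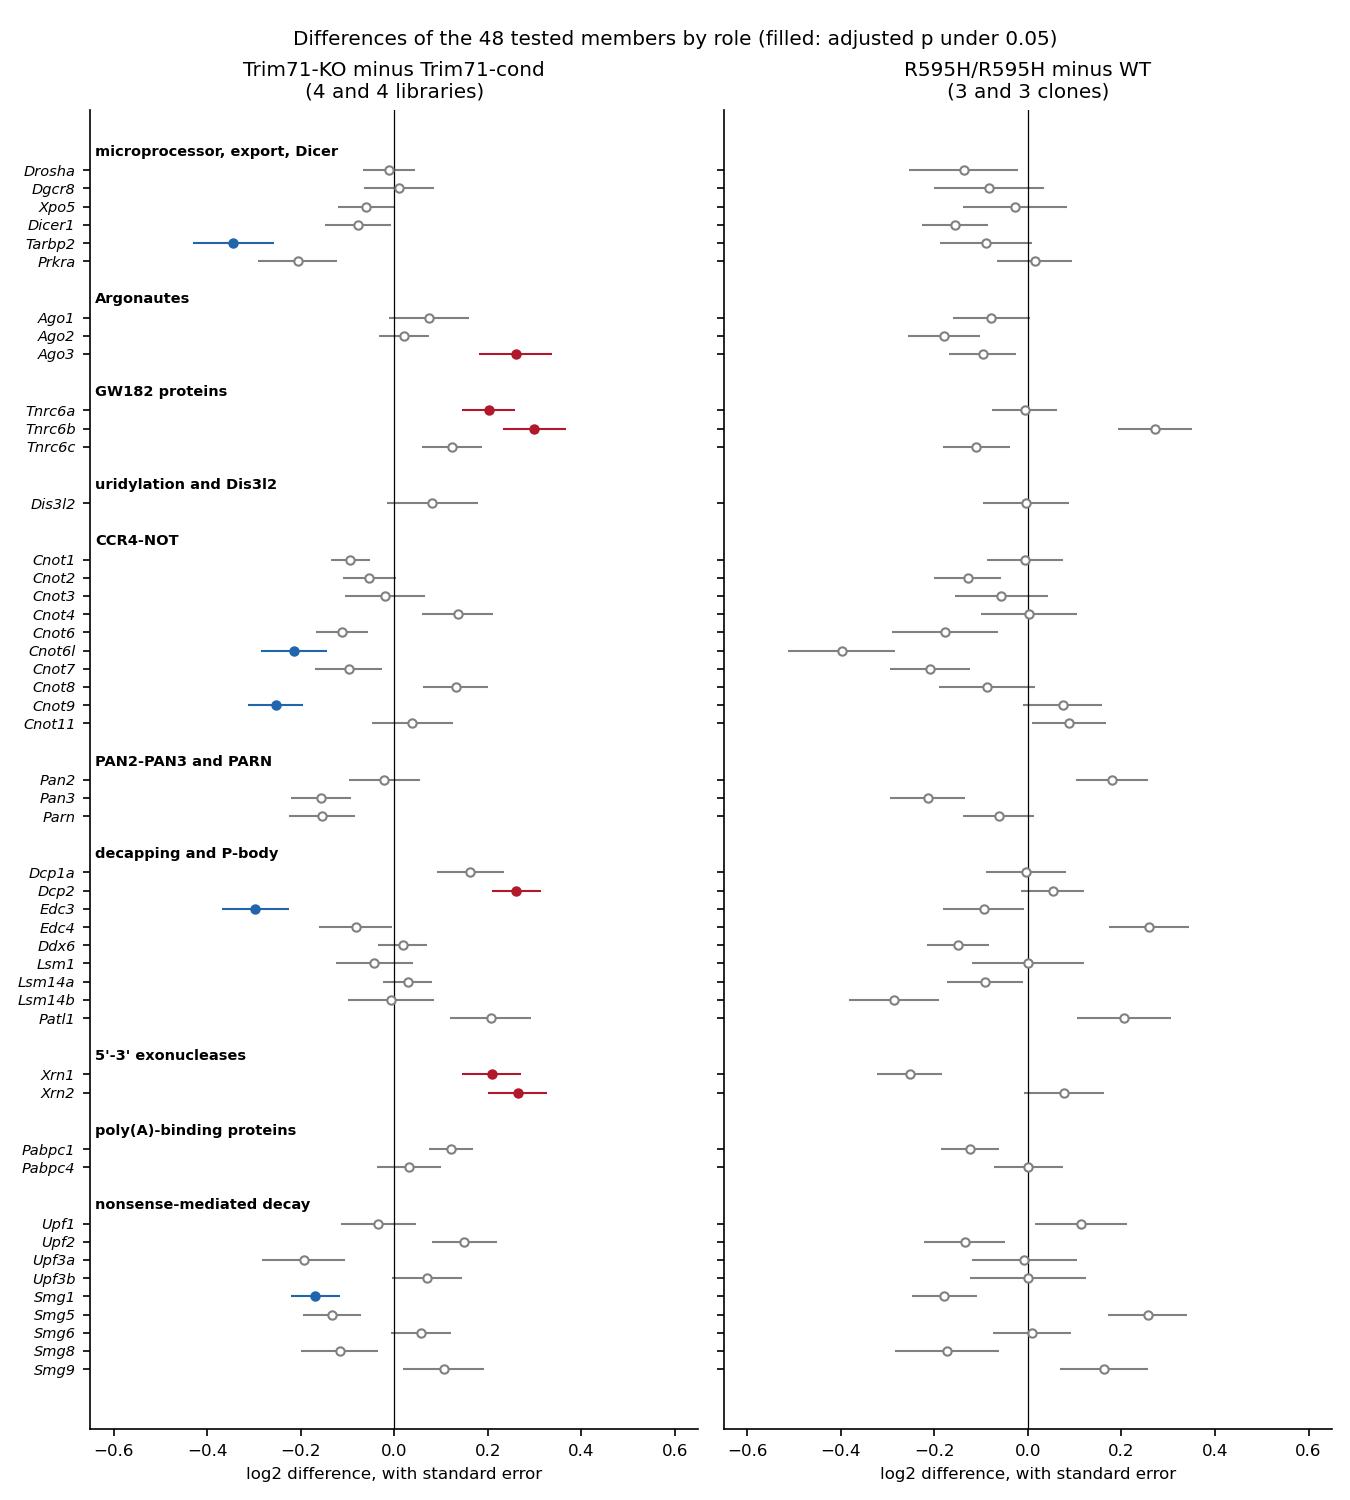
Log2 difference of each of the 48 tested members, grouped by role, for Trim71-KO minus Trim71-cond (left, 4 and 4 libraries) and R595H/R595H minus WT (right, 3 and 3 clones). Bars are standard errors, filled points have a limma adjusted p under 0.05, red above 0 and blue below. On the left 11 points are filled, 6 higher and 5 lower, and on the right 0 are.

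Among the genes of microRNA processing, Tarbp2 fell in Trim71-KO. It lies on chromosome 15 from 102518192 to 102523676 (GRCm38, GENCODE vM21, plus strand). Its level was 4.57 (1A), 4.33 (2B), 4.54 (3A) and 4.60 (3B) in Trim71-KO, against 4.76, 4.87, 4.92 and 4.88 in Trim71-cond for the same codes. Each Trim71-KO library lay below each Trim71-cond library. The log2 difference was -0.34 ± 0.09 (SE), a 1.27-fold lower level, with a limma adjusted p of 0.0088, and 0.037 in the 20-library fit. Of the 50-base words of its transcript, 49.1% also occur in the genes Gm18584 and Gm18561, so its counts could have been shared with those copies. Prkra, the other double-stranded RNA-binding partner of Dicer, stood at 3.83 ± 0.11 in Trim71-KO and 4.03 ± 0.10 in Trim71-cond (SD, n = 4 each) and was not called, with a limma adjusted p of 0.092. The nuclease genes Drosha and Dicer1, Dgcr8 and Xpo5 differed by -0.08 to 0.01 and were not called. Exons of Dgcr8 share 10.7% of their bases with Trmt2a on the other strand, and the library kit does not mark strand. Trmt2a itself differed by -0.29 (limma adjusted p 0.0067 in the 8-library fit), and the part of shared reads was not tested.

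Among the effectors, 3 of 6 tested Argonaute and GW182 genes were called in the 8-library fit, all higher (beside 9.24% of all genes), and 1, Tnrc6b, in the 20-library fit. Tnrc6b (chromosome 15, 80711313 to 80941085, plus strand), one of the scaffold proteins that link Argonaute to the deadenylases, had levels of 7.83, 7.90, 7.92 and 7.84 in Trim71-KO libraries 1A, 2B, 3A and 3B, against 7.66, 7.47, 7.71 and 7.46 in Trim71-cond. The groups did not overlap. The difference was 0.30 ± 0.07, or 1.23-fold, with a limma adjusted p of 0.0043, and 0.032 in the 20-library fit. Its paralog Tnrc6a (chromosome 7, 123123885 to 123195296, plus strand) was higher by 0.20 ± 0.06, at 8.14, 8.17, 8.23 and 8.18 in Trim71-KO against 8.03, 7.92, 8.02 and 7.94 in Trim71-cond. Its limma adjusted p was 0.017, but 0.094 in the 20-library fit. Ago3 (chromosome 4, 126331704 to 126429556, minus strand), an Argonaute, had 7.04, 6.97, 7.28 and 7.06 in Trim71-KO against 6.87, 6.95, 6.71 and 6.77 in Trim71-cond. That is a difference of 0.26 ± 0.08, with a limma adjusted p of 0.025 and 0.069 in the 20-library fit. Within code 2B the Ago3 difference was 0.02 and within 3A it was 0.56, and its call was lost without either 3A library or without Trim71-cond 3B (limma adjusted p of 0.068 to 0.094). Tnrc6c, the other GW182 gene, and Ago1 and Ago2 differed by 0.12, 0.07 and 0.02 and were not called.

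Of the 10 CCR4-NOT genes, 2 (20%) were called in the 8-library fit, both lower, beside 18.6% of all genes called and 9.37% lower. In the 20-library fit 1 (10%) was called, beside 7.22% of all genes. Cnot9 (chromosome 1, 74506058 to 74530842, plus strand) encodes the subunit through which the complex binds GW182 proteins. Its levels were 7.90, 7.87, 7.96 and 7.79 in Trim71-KO libraries 1A, 2B, 3A and 3B, against 8.08, 8.14, 8.14 and 8.18 in Trim71-cond, without overlap. The difference was -0.25 ± 0.06 with a limma adjusted p of 0.0053, and 0.049 in the 20-library fit. Cnot6l (chromosome 5, 96070333 to 96164171, minus strand), a catalytic subunit, stood at 6.46, 6.54, 6.61 and 6.43 in Trim71-KO against 6.73, 6.75, 6.69 and 6.73 in Trim71-cond, without overlap, a difference of -0.21 ± 0.07. Its limma adjusted p of 0.038 became 0.093 with the replicate code as a block and 0.22 in the 20-library fit, and 4 of 15 alternatives kept the call. The scaffold gene Cnot1 and the other catalytic subunit genes, Cnot6, Cnot7 and Cnot8, differed by -0.09, -0.11, -0.10 and 0.13 and were not called. Cnot2, Cnot3, Cnot4 and Cnot11, which do not encode deadenylases, differed by -0.05, -0.02, 0.14 and 0.04, also without a call. Nor were Pan2, Pan3 and Parn, the genes of the other deadenylases, at -0.02, -0.16 and -0.15.

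Decapping genes went both ways. Dcp2, on chromosome 18, encodes the enzyme that cuts the cap. It had 10.14, 10.07, 10.14 and 10.19 in Trim71-KO libraries 1A, 2B, 3A and 3B, against 9.82, 9.76, 9.91 and 9.99 in Trim71-cond, again without overlap. With a difference of 0.26 ± 0.05 its limma adjusted p of 0.0018 was the smallest among the members, and it was 0.027 in the 20-library fit. Edc3 (chromosome 9, 57708540 to 57752499, plus strand), whose product enhances decapping, had 6.56, 6.51, 6.43 and 6.62 in Trim71-KO against 6.79, 6.79, 6.93 and 6.80 in Trim71-cond. The difference was -0.30 ± 0.07, with a limma adjusted p of 0.0069, and 0.047 in the 20-library fit. Exons of Edc3 share 22.1% of their bases with Clk3 on the other strand, and the library kit does not mark strand. Clk3 itself differed by -0.05 (limma adjusted p 0.70), and the part of shared reads was not tested. Dcp1a, the DCP2 cofactor gene, and Patl1, which links decapping to deadenylation, stood 0.16 and 0.21 above Trim71-cond and were not called. Edc4, Ddx6, Lsm1, Lsm14a and Lsm14b differed by -0.08 to 0.03.

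Both exonuclease genes were higher in Trim71-KO in the 8-library fit (beside 9.24% of all genes), and Xrn2 in both fits (beside 3.91% in the 20-library fit). Xrn2 (chromosome 2, 147012996 to 147078000, plus strand), which acts in the nucleus and in transcription termination, had 9.31, 9.47, 9.42 and 9.46 in Trim71-KO libraries 1A, 2B, 3A and 3B. Trim71-cond had 9.22, 9.08, 8.99 and 9.31, so that the groups met at 9.31. The difference was 0.26 ± 0.06, with a limma adjusted p of 0.0063, and 0.046 in the 20-library fit. Xrn1 (chromosome 9, 95954760 to 96057803, plus strand), the cytoplasmic enzyme, was at 8.49, 8.73, 8.50 and 8.60 in Trim71-KO against 8.48, 8.32, 8.34 and 8.33 in Trim71-cond. Both code 1A libraries stood side by side, with a difference of 0.00. Over all codes it was 0.21 ± 0.06, with a limma adjusted p of 0.025, and 0.091 in the 20-library fit. Of 8 fits that each left out 1 library, 3 kept the call of Xrn1.

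In nonsense-mediated decay 1 of 9 genes (11.1%) was called in the fit of the conditional libraries alone, and it was lower. Beside it stand 18.6% of all genes called and 9.37% lower. In the 20-library fit 0 of 9 were called, beside 7.22% of all genes. Smg1 (chromosome 7, 118131308 to 118243670, minus strand), the kinase of UPF1, had 9.90, 9.72, 9.90 and 9.85 in Trim71-KO against 9.97, 9.97, 10.10 and 10.00 in Trim71-cond. The difference of -0.17 ± 0.05 had a limma adjusted p of 0.028, and 0.15 in the 20-library fit. The helicase gene Upf1 and the genes of its partners Upf2, Upf3a and Upf3b differed by -0.03, 0.15, -0.19 and 0.07 and were not called. Smg6, an endonuclease gene, and Smg8 and Smg9, whose products bind SMG1, differed by 0.06, -0.12 and 0.11. Dis3l2, the exonuclease gene for uridylated RNA, differed by 0.08, again without a call. Neither poly(A)-binding protein gene was called. Pabpc1 stood at 10.99 ± 0.07 in Trim71-KO and 10.87 ± 0.06 in Trim71-cond (SD, n = 4 each; limma adjusted p 0.076), and Pabpc4, most of whose sequence words (70.7%) recur in other genes such as Gm10110, differed by 0.03. Over the 37 tested members without a call, differences lay between -0.21 and 0.21 with standard errors of at most 0.10, and the lowest limma adjusted p among them was 0.076.

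**Figure D2:**
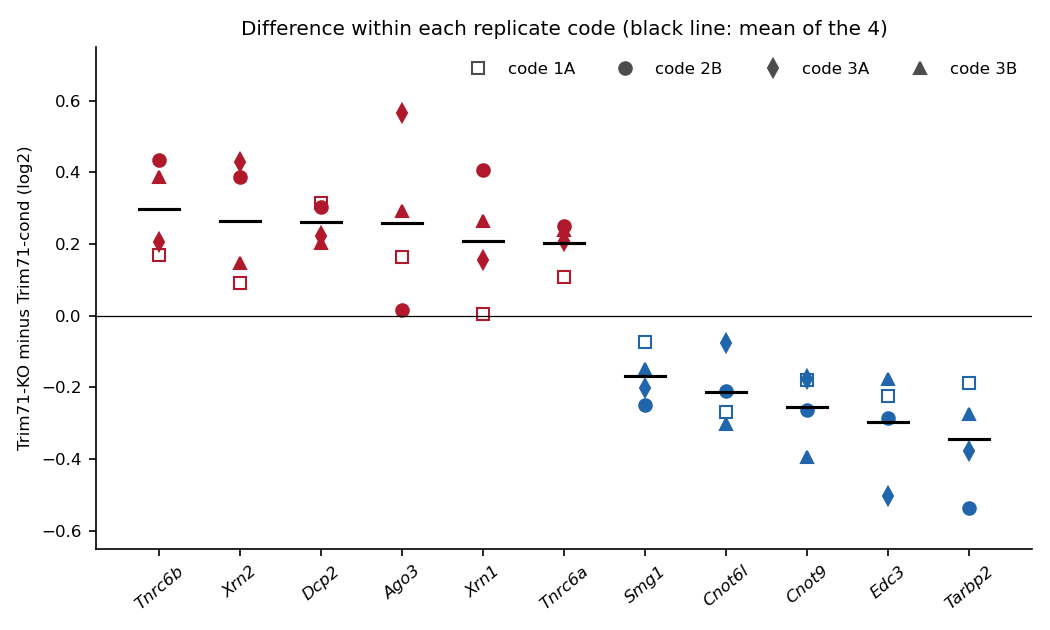
Trim71-KO minus Trim71-cond on the log2 scale within each replicate code, for the 11 members called in the 8-library fit, ordered by their mean difference (black lines). All 4 codes lie on the same side of 0 for each gene, with Xrn1 in code 1A (0.00) and Ago3 in code 2B (0.02) next to 0.

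The clones with R595H on both alleles were then set against WT, which asks whether the amino acid change leads to the same differences. Limma called 0 of 48 members, beside 3.42% of all 9587 genes tested, with 13 members at an unadjusted p under 0.05 (beside 21% of all genes). The 20-library fit called 0 as well, beside 4.05%. Clones did not overlap for 19 of 48 members (39.6%), beside 29.7% of all genes. The members' median difference was -0.06, beside 0.00 for all genes, and the extremes were -0.40 and 0.27. Scaling every library to the same total moved the differences of all genes alike, by -0.035, so that the 6 members just above 0 came to lie below it. A single symbol, Lars2, made up 13.2% of the summed linear values in R595H/R595H C24 and 0.334% in C20, the extremes of all 20 libraries. Its part in this shift was not tested. Standard errors of the members lay between 0.06 and 0.12. Without WT C5, the WT clone with the higher Y-linked mean, 0 of 48 members were called as well. Because 0 were already called with WT C5 kept, this count cannot bear on the part of that difference between clones. That part was not tested.

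The member closest to a call was Xrn1. Its level was 8.52 and 8.48 in R595H/R595H C14 (20/1 and 5/2), 8.51 in C20 and 8.47 in C24, against 8.78 and 8.72 in WT C16, 8.82 in C7 and 8.67 in C5. Every R595H/R595H library lay below every WT library, a difference of -0.25 ± 0.07 with a limma adjusted p of 0.057, and 0.056 in the 20-library fit. It was called in 3 alternatives, with clone as a random effect over 12 libraries (limma adjusted p 0.027) and without R595H/+ C21 (0.043) or C23 (0.049). Cnot6l, at 6.48 and 6.46 in C14, 6.20 in C20 and 6.49 in C24, stood below WT, at 6.83 and 6.55 in C16, 7.00 in C7 and 6.66 in C5. The difference was -0.40 ± 0.11 (limma adjusted p 0.071), and it was called without C21 (0.042). Tnrc6b was above WT in every library, at 7.67 and 7.63 in C14, 7.56 in C20 and 7.59 in C24 against 7.44 and 7.34 in C16, 7.30 in C7 and 7.30 in C5. Its difference of 0.27 ± 0.08 had a limma adjusted p of 0.076 in both fits. Edc4, the decapping scaffold, stood 0.26 ± 0.09 above WT, and Lsm14b, a P-body protein, and Pan3, the partner of PAN2, stood 0.29 ± 0.10 and 0.21 ± 0.08 below it, at limma adjusted p-values of 0.10, 0.11 and 0.14.

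The uridylyltransferase gene TUT4, listed as Zcchc11 (chromosome 4, 108459426 to 108559421, plus strand), did fall in R595H/R595H. With LIN28A, TUT4 adds uridines to the let-7 precursor and so blocks its maturation. LIN28A binds a GGAG in the loop of the precursor, which is shown here in capitals for 2 let-7 hairpins (RefSeq, GRCm38.p6), let-7g (chromosome 9, 106178840 to 106178927, plus strand) and let-7i (chromosome 10, 122985640 to 122985724, minus strand), 5′ to 3′.
let-7g hairpin, bases 44 to 67: ccacccgguacaGGAGauaacugu
let-7i hairpin, bases 42 to 65: auugcccgcuguGGAGauaacugc
Zcchc11 had 7.97 and 7.96 in R595H/R595H C14, 7.89 in C20 and 7.97 in C24, against 8.28 and 8.16 in WT C16, 8.37 in C7 and 8.22 in C5. No library of one genotype reached the other. The difference was -0.33 ± 0.07, a 1.25-fold lower level, with a limma adjusted p of 0.025, and 0.017 in the 20-library fit. Its call was lost without WT C16, WT C7, WT C5 or R595H/R595H C14 (limma adjusted p of 0.057 to 0.11). In the conditional system Zcchc11 averaged 8.03 in Trim71-KO and 8.00 in Trim71-cond, and Zcchc6 (TUT7) was called in neither system. Lin28a, the partner in this step, was lower both in Trim71-KO by 0.89 ± 0.12 and in R595H/R595H by 0.65 ± 0.11 (limma adjusted p 7.5e-05 and 0.0091, each also passing the 20-library fit). The paralog gene Lin28b went the other way in Trim71-KO, higher by 0.44 ± 0.09 in the 8-library fit (limma adjusted p 0.0030). It was not called in the 20-library fit (limma adjusted p 0.25). MicroRNAs themselves were not measured in these poly(A) libraries.

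In the heterozygous clones, R595H/+ against WT, limma called 0 of 48 members and 0 of 9587 genes (0%), and 0 of both in the 20-library fit. There were 2 members at an unadjusted p under 0.05, Edc3 and Xrn1, beside 7.66% of all genes. Edc3 stood at 6.96 and 6.78 in R595H/+ C15, 6.70 in C21 and 6.59 in C23, against 6.39 and 6.51 in WT C16, 6.43 in C7 and 6.54 in C5. Every R595H/+ library was above every WT library, by 0.25 ± 0.09 on average (limma adjusted p 0.57). Xrn1 was 0.18 ± 0.07 below WT (limma adjusted p 0.57). Between R595H/R595H and R595H/+ limma called 0 of 48 members, beside 0.772% of all genes, with 8 at an unadjusted p under 0.05, beside 18.7%. In the 20-library fit 1 member, Edc3, was called, beside 1.39% of all genes. R595H/R595H libraries had 6.33 and 6.38 (C14), 6.36 (C20) and 6.43 (C24) of Edc3, below each R595H/+ library, with a difference of -0.39 ± 0.09 and a limma adjusted p of 0.029 in that fit, but -0.34 ± 0.09 and 0.073 over clone means.

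**Figure D3:**
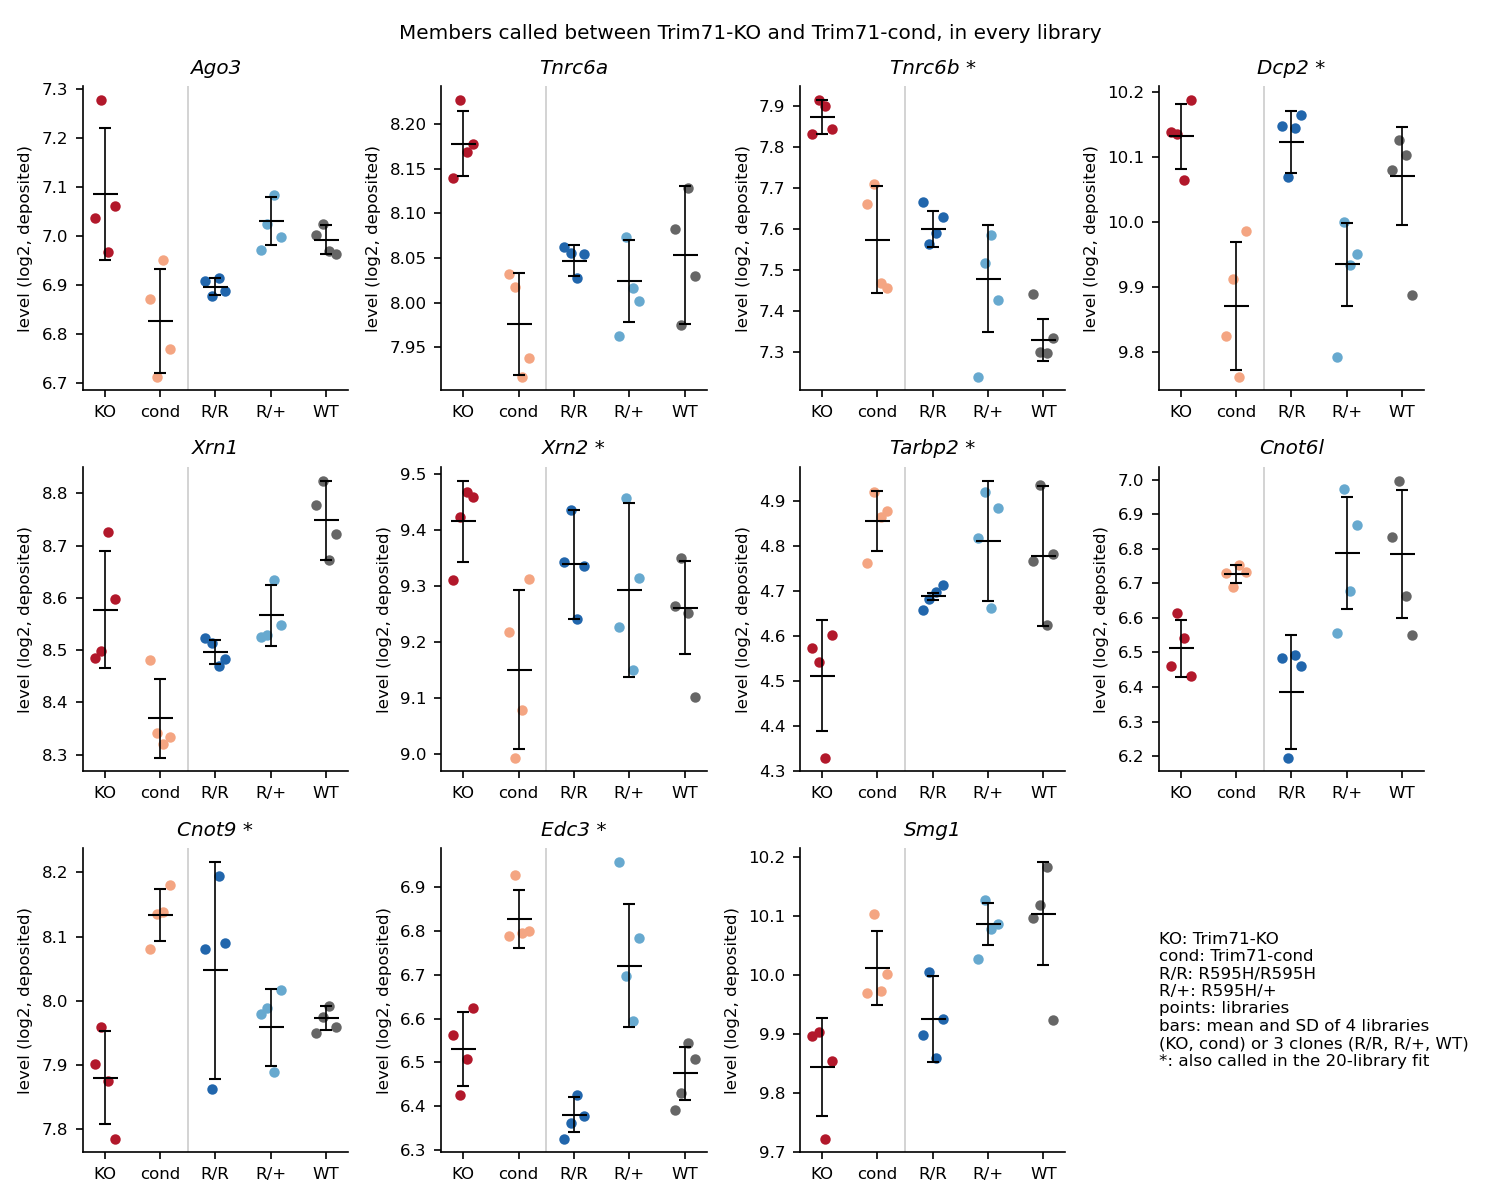
Level of the 11 members called between Trim71-KO and Trim71-cond in all 20 libraries, on the deposited log2 scale, each panel with its own axis. Points are libraries, black bars mean and SD over 4 libraries (KO, cond) or 3 clones (R/R, R/+, WT), and asterisks mark the 6 genes also called in the 20-library fit. Xrn1 is higher in KO than in cond and lower in R/R than in WT.

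The last comparison tested directly whether the deletion and the homozygous change differ in their effect. Both systems differ in starting cells and handling as well, and these cannot be told apart from genotype. Of 48 members 2 were called, Xrn1 and Smg5, which is 4.17% beside 1.42% of 9585 genes, and 11 had an unadjusted p under 0.05, beside 17.4%. The 20-library fit called Xrn1 alone, 2.08% beside 0.375%. Xrn1 was 0.46 ± 0.10 higher in the effect of the deletion than in that of R595H/R595H, with a limma adjusted p of 0.011, and 0.044 in the 20-library fit. This held in 23 of 24 alternatives and was lost without WT C7 (limma adjusted p 0.050). The means of Trim71-KO and R595H/R595H were 8.58 and 8.50, while Trim71-cond had the lowest mean of the 5 groups, 8.37, and WT the highest, 8.75.

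Smg5 (chromosome 3, 88336260 to 88362338, plus strand), which binds phosphorylated UPF1, gave the opposite order. It had 7.37, 7.27, 7.36 and 7.38 in Trim71-KO against 7.48, 7.50, 7.44 and 7.49 in Trim71-cond, and 7.81 and 7.84 in R595H/R595H C14, 8.03 in C20 and 7.85 in C24 against 7.58 and 7.84 in WT C16, 7.55 in C7 and 7.67 in C5. The deletion groups did not overlap, and neither did the clone means of R595H/R595H and WT. The difference of the effects was -0.39 ± 0.10 with a limma adjusted p of 0.048, but 0.24 in the 20-library fit, and 3 of 24 alternatives kept the call. For Zcchc11 it was 0.35 ± 0.09 (limma adjusted p 0.045, and 0.19 in the 20-library fit), kept in 4 of 24. Across the 48 members the differences of both systems had the same sign in 27 (56.2%), beside 61.3% of the 9531 genes tested in both, and Pearson's r was 0.24 across members and 0.37 across all genes (Spearman's rho 0.23 and 0.33). Genes are not independent replicates, and no p is given.

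**Figure D4:**
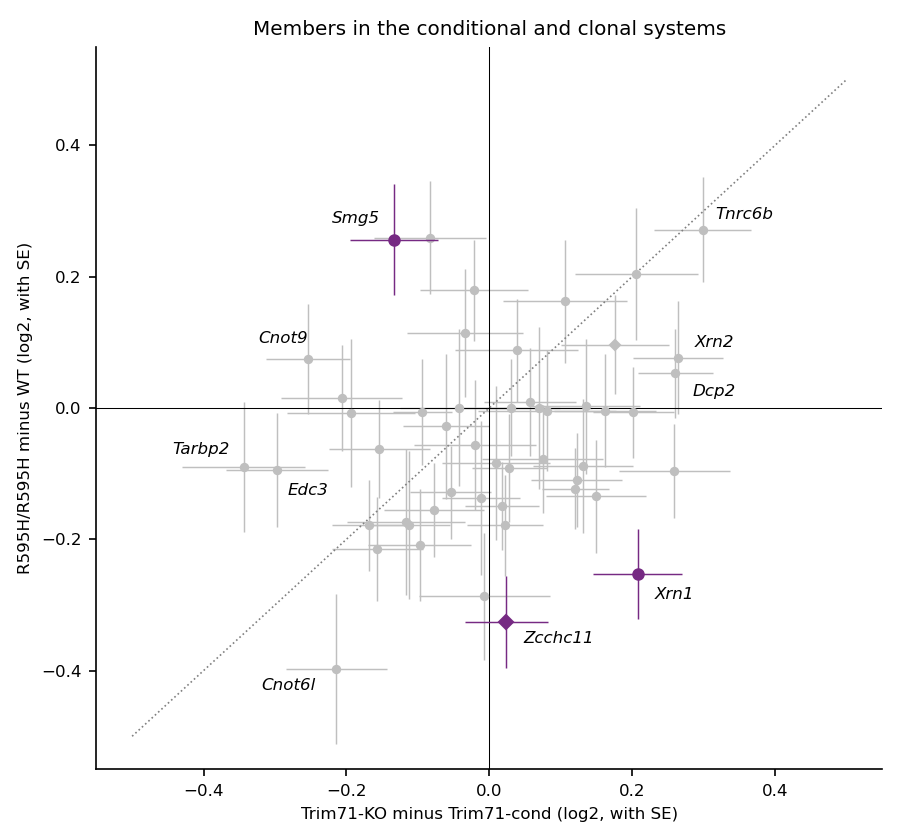
Log2 difference of the 48 tested members (circles) and of Zcchc11 and Zcchc6 (diamonds) in Trim71-KO minus Trim71-cond (x) and in R595H/R595H minus WT (y), with standard errors. The dotted line marks equal differences, and purple marks genes whose effects differed in the fit of both systems. Xrn1 lies lower right, Smg5 upper left and Zcchc11 below 0 on the y axis alone.

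Other genes of these pathways were counted from lists of their own, which were drawn up with earlier results of these data known. Beside their counts in Trim71-KO stand 9.24% of all genes higher and 9.37% lower in the 8-library fit, and 3.91% and 3.31% in the 20-library fit. In Trim71-KO 3 of 21 microRNA regulators were higher and 5 lower, Trim71 among them, but in the 20-library fit 1 was higher, the splicing factor gene Hnrnpa1 (0.21 ± 0.05, limma adjusted p 0.0041 and 0.047), and 2 lower, Trim71 and Lin28a. Of 19 adaptors that guide deadenylation 3 were higher in both fits. These were Btg2, which activates deadenylation, by 0.54 ± 0.08, and the genes of the RNA-binding proteins Zfp36l1 and Rc3h2 (Roquin-2), by 0.35 ± 0.09 and 0.29 ± 0.06. Another 2 were lower in the 8-library fit alone. Of 13 other decapping and LSM genes 1 rose and 2 fell, and Gigyf2, a partner of the cap-binding repressor 4EHP, kept its rise of 0.26 ± 0.06 in both fits. Paip2, which holds poly(A)-binding protein off the tail, fell by 0.31 ± 0.06 in both fits, while of all 8 genes of poly(A) binding and polyadenylation 1 rose and 2 fell in the 8-library fit. Ttc37 of the SKI complex, which feeds the exosome, was higher by 0.29 ± 0.06 in both, and of all 16 exosome and SKI genes 1 rose and 1 fell in the 8-library fit. Among 15 further genes of nonsense-mediated decay and the exon junction, Gspt2, a translation release factor, rose in Trim71-KO by 0.39 ± 0.09 and in R595H/R595H by 0.37 ± 0.09, in both fits. In the 8-library fit alone 2 of them were lower in Trim71-KO, the cap-binding subunit gene Ncbp1 by 0.22 ± 0.06 and the exon junction core gene Eif4a3 by 0.19 ± 0.07 (limma adjusted p 0.011 and 0.048).

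In R595H/R595H 3 of 13 decapping and LSM genes were lower (beside 1.23% of all genes, with 2.19% higher). They are Lsm3 and Lsm7, of the ring that binds deadenylated messages, and the scavenger decapping enzyme gene Dcps, by 0.33 ± 0.08, 0.34 ± 0.09 and 0.34 ± 0.09 (limma adjusted p 0.035, 0.045 and 0.049). Lsm3 alone of these passed the 20-library fit (0.034). It was also lower in Trim71-KO, by 0.24 ± 0.08 in the 8-library fit (limma adjusted p 0.047), but was not called there in the 20-library fit (0.11). Reported substrates of nonsense-mediated decay served as a readout. In Trim71-KO 1 of 13 was higher and 2 lower in the 8-library fit, and 0 were called in the 20-library fit. In R595H/R595H 1 of 13 was higher, the stress gene Gadd45a, by 0.68 ± 0.11 (limma adjusted p 0.0074), and its effect differed from that of the deletion by -0.60 ± 0.14 in Trim71-KO minus R595H/R595H (limma adjusted p 0.022, and 0.044 in the 20-library fit).

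Matches to the seeds of 2 microRNA families, let-7 and the stem cell family of miR-290 and miR-302, were looked up in annotated 3′ UTRs. Some members make microRNAs or carry out their silencing, and any member may carry sites for them. The mature sequences (RefSeq, GRCm38.p6) are given 5′ to 3′ with the seed, bases 2 to 8, in capitals. The let-7 members share 1 seed, and the miR-290 and miR-302 members another.
let-7g-5p: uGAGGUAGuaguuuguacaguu
let-7i-5p: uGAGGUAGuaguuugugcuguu
miR-294-3p: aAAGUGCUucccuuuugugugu
miR-302b-3p: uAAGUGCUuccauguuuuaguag
The motif CTACCTC, the complement of the let-7 seed, occurs on the transcript strand of 4 of 48 tested members (8.33%; Tarbp2, Ago2, Ago3 and Edc3), beside 10.6% of 9501 tested genes with an annotated 3′ UTR. The motif AGCACTT of miR-294 occurs in 7 of 48 (14.6%; Ago3, Tnrc6b, Tnrc6c, Cnot6, Cnot6l, Pan3 and Dcp2), beside 18.5% of the same genes. The motifs do not overlap each other. Among called members the let-7 match of Tarbp2 (chromosome 15, 102523444 to 102523450, plus strand), of Edc3 (chromosome 9, 57749254 to 57749260, plus strand) and of Ago3 (chromosome 4, 126335041 to 126335047, minus strand), and the first miR-294 match of Tnrc6b (chromosome 15, 80931328 to 80931334, plus strand), all GRCm38, read as follows, the match in capitals.
Tarbp2: ggtgccatctCTACCTCtgacac
Edc3: ccatcatttcCTACCTCcttgtc
Ago3: ctgccctcacCTACCTCaccaag
Tnrc6b: ggaacatgctAGCACTTgtgtga
Of the 4 members with a let-7 match, Tarbp2 and Edc3 fell in Trim71-KO in both fits, Ago3 was higher in the 8-library fit alone and Ago2 was not called. Of the 7 with a miR-294 match, Tnrc6b and Dcp2 were higher in both fits, Ago3, which has matches of both kinds, was higher and Cnot6l lower in the 8-library fit alone, and Tnrc6c, Cnot6 and Pan3 were not called. Beside these calls stand 9.24% of all genes higher and 9.37% lower in the 8-library fit, and 3.91% and 3.31% in the 20-library fit. The share called among all genes with a match was not counted, and no tie between match and direction was tested. A match is a string of letters, not a shown site of regulation.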

How the data were processed

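The deposited table holds 1 value per symbol and library on a log scale, scaled by the authors. The unit is not stated in it, and base 2 (log2) was inferred from DESeq2, which the submitters' processing notes name beside CASAVA 1.8 and STAR. No source used here gives the build or the counting step. The extraction and library steps were, per the labels, TRIZOL, TruSeq RNA v2 and paired-end reads. Values run from -0.65 to 18.0 and resemble regularized logs, which shrink low values, so fold changes of low genes may be understated. The planned test assumed a linear scale. Because the values were already logs, limma 3.58.1 (R 4.3.3; trend and robust eBayes) was run on them as deposited, with a filter of log2 of 10 on the mean.

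The conditional fit held 8 libraries, the clonal fit 9 clone means, and the fit of both 17 values. Calls are at a Benjamini-Hochberg adjusted p under 0.05 over all genes tested. The labels give Trim71-KO and Trim71-cond libraries of a code the same day, which pairs them, though codes 3A and 3B share day 3 and the block used 4 codes. Same-coded deviations correlated at -0.89 (1A), -0.09 (2B), -0.12 (3A) and 0.13 (3B), values that the missing directions also shape. Members, lists and tests were chosen with earlier results of these data known. Named were all members called in any comparison, the 3 next by p in the first 2 comparisons, Trim71, and up to 4 called genes of each list. Alternatives were another scaling (equal totals, quantile), no filter, plain eBayes, the replicate block, each library or clone left out, 5/2 libraries only, clone as a random effect and, added after the values were seen, both 1A libraries left out and the 20-library fit. The scripts were tested on simulated data. Positions and 3′ UTRs are from GENCODE vM21 (GRCm38), sequences from RefSeq (GRCm38.p6).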

Additional observations from a re-analysis of the deposited data

Results flagged for a closer look

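In 13 named genes the 4 libraries of each conditional group were checked for a value far from the other 3, which gave 3 results in 26 groups, where chance gives about 1 in 20. Edc3 in Trim71-cond has 3A above the other libraries, at 6.93 against 6.79 to 6.80, a gap of 0.91 of the group's range. Xrn1 in Trim71-cond has 1A above the others, at 8.48 against 8.32 to 8.34, a gap of 0.869 of the range. Smg5 in Trim71-KO has 2B below the others, at 7.27 against 7.36 to 7.38, a gap of 0.852 of the range.

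For 3 genes the effect of the deletion differed from that of R595H/R595H in a test of the difference itself. It was 0.46 ± 0.10 on the log2 scale for Xrn1, with Trim71-KO 0.21 above Trim71-cond and R595H/R595H 0.25 below WT. For Smg5 it was -0.39 ± 0.10, and for Zcchc11 0.35 ± 0.09. Limma adjusted p-values were 0.011, 0.048 and 0.045, and 0.044, 0.24 and 0.19 in the 20-library fit.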

How the results depend on the processing

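Of the 11 members called in Trim71-KO, Tarbp2, Tnrc6b, Cnot9, Dcp2, Edc3 and Xrn2 kept direction and call in all 15 alternatives, while Tnrc6a kept its call in 13, Ago3 in 11, Smg1 in 10, Xrn1 in 8 and Cnot6l in 4; 0 changed sign. The count of 11 was 6 in the 20-library fit, 10 with the replicate block and 13 without both 1A libraries (Cnot6l lost; Prkra, Pabpc1 and Upf2 gained), and 7 to 11 with 1 library left out, the lowest without Trim71-cond 3A. The block ended no call but that of Cnot6l. With clone as a random effect 1 member was called in R595H/R595H against WT (Xrn1), and 0 to 2 with a clone left out. The 20-library fit called 1 member (Edc3) between R595H/R595H and R595H/+. The 2 members called for the difference of effects were 1 (Xrn1) without the filter, with equal totals, with plain eBayes, with 5/2 libraries only, without both 1A libraries and in the 20-library fit, and 0 to 2 with a library or clone left out.

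Over all genes, the 1783 called in Trim71-KO were 692 in the 20-library fit. The 328 of R595H/R595H against WT were 157 with equal totals (72 higher and 85 lower, against 210 and 118), 191 with 5/2 libraries only and 67 to 541 with a clone left out (lowest when C14, highest when C21 was omitted). The 74 between R595H/R595H and R595H/+ were 116 without the filter, 19 with equal totals, 213 with clone as a random effect, 133 in the 20-library fit and 7 to 80 with a clone left out. The 136 for the difference of effects were 83 with 5/2 libraries only, 36 in the 20-library fit and 40 (without WT C7) to 225 (without R595H/+ C21) with a library or clone left out. The causes were not tested. Depth is unknown, so what it limits cannot be said.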
